A study of Mus musculus with 7 samples.

Results

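Retinoic acid receptor α (RARα) is a nuclear receptor that binds retinoic acid (RA), and in the textbook model it sits on DNA as a heterodimer with retinoid X receptor α (RXRα), on repeats of the half-site AGGTCA. Retinoic acid receptor β (RARβ) is a related receptor that binds the same ligand and pairs with RXRα as well. Liver handles most of the body's retinoids, which hepatocytes take up and hepatic stellate cells store as esters. The regions described here carried peaks of RARα under both diets and no peak of RARβ or RXRα. They were selected on measured values, namely the peak calls of all 6 lists, so their RARα signal and their lack of RARβ and RXRα peaks are not findings.

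Chromatin immunoprecipitation with sequencing (ChIP-seq) was done on livers of male C57BL/6 mice of 3 months that were fed a control diet or an RA diet for 1 day, the time the sample labels give; the study's methods give a longer treatment. There was 1 library for each of RARα, RARβ and RXRα under each diet, and a peak list of each of the 6 libraries was used here. Whole liver was used, so the cells behind a peak are not separated, and no source used here says whether livers were pooled. With 1 library per receptor and diet there are no replicates, so no difference between diets or receptors could be tested, and the 95% Wilson intervals below cover counting error only.

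The 6 lists held between 14968 and 61128 peaks each, of which the RARα control list held 35521 and the RARα RA list 44296. Read depth is not in the lists. The study's text gives more uniquely mapped reads for RARα than for RXRα, without naming a diet or saying which libraries these were. List length can follow read depth, and a missing RARβ or RXRα peak means only that no peak was called there. After overlapping and touching peaks were merged, the lists gave 87787 regions on mm10 (GRCm38), of which 7317 (8.33%) were called in both RARα lists and in no other list. They made up 24.6% (24.1 to 25.1) of the 29701 regions that both RARα lists shared. Almost all of them, 7283, held 1 peak of each RARα list. They took 20.6% of the RARα peaks of the control list and 16.6% of those of the RA list, and covered 3.92 Mb.

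Most RARα-only regions lay away from the starts of protein-coding genes. The midpoint was within 1 kb of a start for 536 of them (7.33%, 6.75 to 7.95), against 13.9% (13.7 to 14.1) of all regions and 60.4% (59.3 to 61.4) of the 8565 regions called in all 6 lists. The 2432 regions with RARα and RXRα under both diets but no RARβ stood at 14.1% (12.8 to 15.5), and the 319 with RARα and RARβ but no RXRα at 75.5% (70.5 to 79.9). The share for the RARα-only regions was thus below each of these, with intervals that do not overlap. Regions with RARα alone that were called in the RA list only stood lower still, at 6.03% (5.40 to 6.74), and those called in the control list only at 13.0% (11.7 to 14.5). It was above 1.83%, the share of the genome between the outermost regions that lies within 1 kb of a start.

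Between 1 and 10 kb of a start lay 20.1% of the RARα-only regions, between 10 and 50 kb 42.8%, and beyond 50 kb 29.8%, so the median distance was 24741 bp. The share beyond 50 kb was close to that of all regions, 29.9%, and above the 12.9% of regions of all 6 lists. By position, 41.5% were inside a protein-coding gene span but beyond 1 kb of a start, and 51.2% were outside gene spans and beyond 1 kb of a start. Where each list was cut to its 14968 highest scores, the length of the shortest list, the share of RARα-only regions within 1 kb of a start was 16.0% (15.0 to 17.2), beside 25.8% of all regions and 57.6% of regions of all 6 lists. The RARα and RXRα regions without RARβ then stood at 20.7% (14.3 to 28.9) of 116, an interval that overlaps that of the RARα-only regions.

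**Figure D1:**
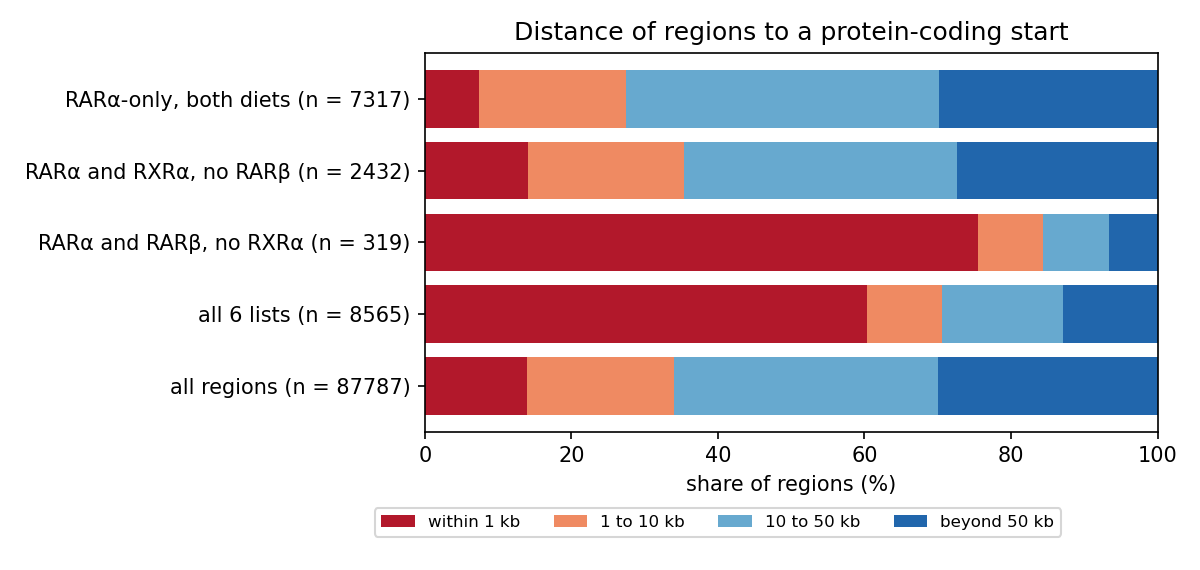
Share of regions (x axis, %) by distance of the midpoint to the nearest protein-coding start, for the RARα-only regions, 3 other classes and all regions (rows, with the number of regions). The bar for the RARα-only regions has 7.33% within 1 kb of a start, whereas the bar for regions of all 6 lists has 60.4%.

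The RARα-only regions were narrow, with a median width of 500 bp and quartiles of 427 and 587 bp. The median was 593 bp over all regions, 713.5 bp for RARα and RXRα without RARβ, 883 bp for RARα and RARβ without RXRα, and 1184 bp for regions of all 6 lists. Width follows in part from the merge, since a region with peaks of more lists has more peaks to span. The RARα peaks themselves, which the merge does not widen, had a median width of 463 bp under the control diet and 373 bp under RA, against 888 and 749 bp in regions of all 6 lists. The RA peak was the narrower one in 75.8% of the RARα-only regions with 1 peak of each list, and the centres of the 2 peaks were a median of 46 bp apart.

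The score of a peak is that of the peak caller MACS, a multiple of the negative log10 of a p-value, and was set beside the other peaks of its own list as a percentile rank, where 100 is the highest score. These values took part in choosing the regions and are given as a description. The median score of the RARα-only regions was 102 in the control list and 143 in the RA list, and the median rank went from 45.6 to 56.9. All regions shared by the RARα lists had median ranks of 57.6 and 65.5. Both ranks were at 75 or above for 8.15% of the RARα-only regions, against 24.9% of all shared RARα regions. Of the 1000 highest RARα peaks, 6 in the control list and 16 in the RA list were in RARα-only regions. They were therefore mid-ranking RARα peaks, with few of the highest ones.

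**Figure D2:**
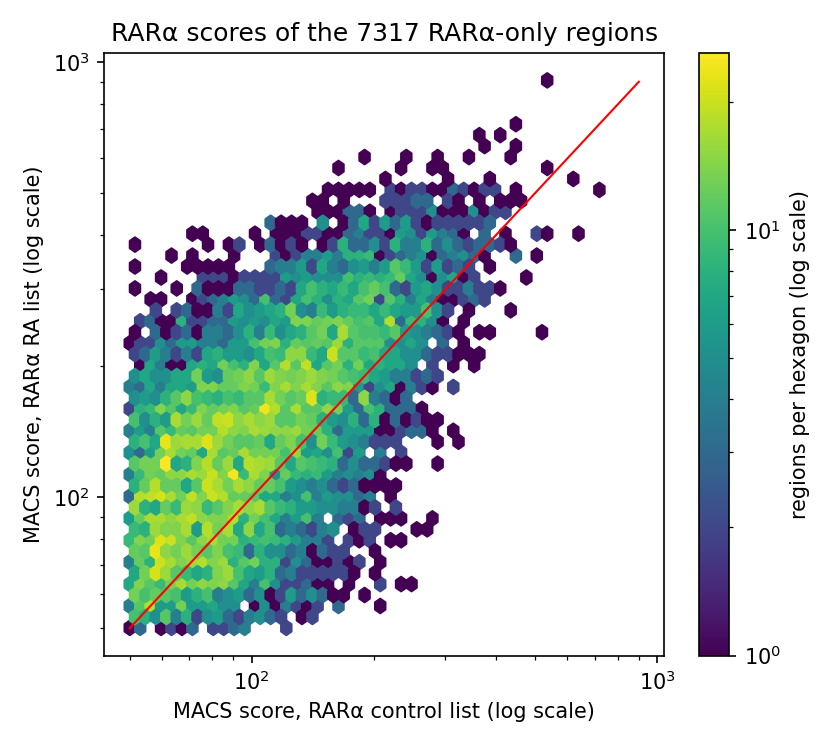
MACS score of each RARα-only region in the RARα control list (x axis, log scale) and in the RARα RA list (y axis, log scale), with the number of regions per hexagon as colour and the line of equal scores in red. Most hexagons lie above the line, in keeping with the medians of 102 and 143, and scores are not normalized between the lists.

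The rank was higher under RA for 68.2% of the RARα-only regions, and for 62.4% of all regions shared by the RARα lists. The RA list is the longer one, and added low-scoring peaks raise the rank of every shared peak, so equal binding does not correspond to equal ranks or to 50%. Regions away from starts had a larger difference in rank than those at starts. Beyond 50 kb the median rank was 46.1 under the control diet and 58.4 under RA, from 10 to 50 kb it was 45.9 and 57.8, and from 1 to 10 kb it was 42.6 and 55.3. Within 1 kb of a start it was 48.0 and 47.8, and 50% of the regions had the higher rank under RA. The shared RARα regions that also held RARβ or RXRα peaks had a like split by distance, with 46.7% higher under RA within 1 kb and 70.8% beyond 50 kb, so this split was not particular to the RARα-only regions.

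**Figure D3:**
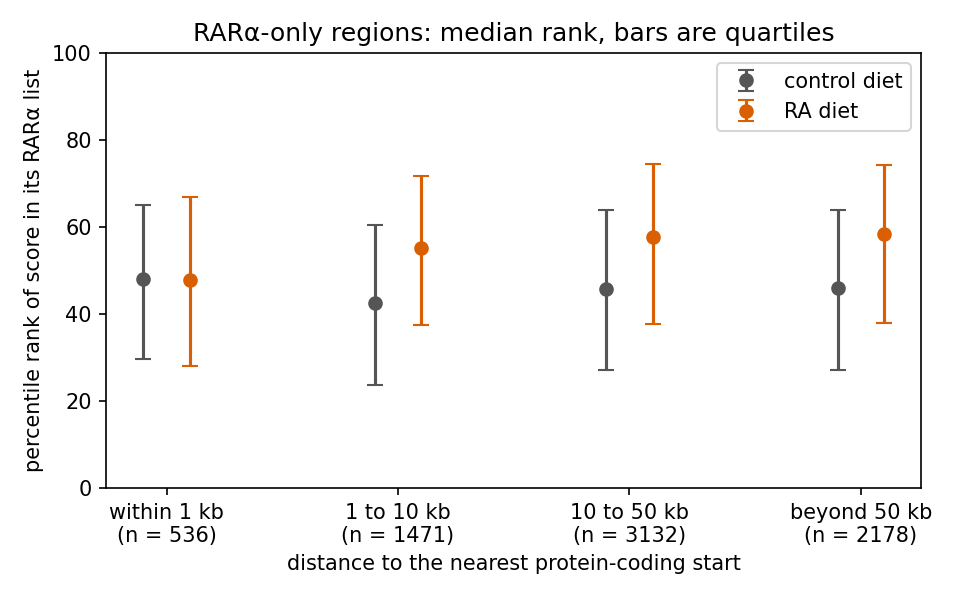
Median percentile rank of the score in its RARα list (y axis), with bars to the quartiles, for the RARα-only regions by distance to the nearest protein-coding start (x axis) under the control diet (grey) and RA (orange). The medians are 48.0 and 47.8 within 1 kb of a start and 46.1 and 58.4 beyond 50 kb.

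At the edge of the selection, 3040 regions were called in both RARα lists and in exactly 1 of the RARβ and RXRα lists, where the median score of that other peak was 66.2. In 562 of these the other score was at most 55, near the lowest score of 50 in the lists, and 19.0% of these 562 were within 1 kb of a start. On the inside, 478 RARα-only regions had a score of at most 55 in the lower of the RARα lists.

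Although free of other receptors by selection, many of the RARα-only regions lay near them. The nearest RARβ or RXRα peak was a median of 8195 bp away, with quartiles of 2694 and 22244 bp. It was within 1 kb for 11.1% (10.4 to 11.8), within 10 kb for 54.9% (53.8 to 56.1) and within 50 kb for 89.6% (88.9 to 90.3). The median distance was 8709 bp to the nearest RXRα peak and 19159 bp to the nearest RARβ peak, and the RXRα lists were the longer ones. The RARα-only regions themselves were spread out, with a median of 163.9 kb between neighbours and 5.44% of the gaps at most 10 kb. The 5 regions farthest from RARβ and RXRα were 746.3 to 809.7 kb away, and the nearest protein-coding genes were LOC115486427, Cdh8, Gm44, 1700006A11Rik and Tram1l1. Cdh8 encodes a cadherin of neurons, and its region, 612.9 kb upstream of the start, had scores of rank 92.5 and 83.0.

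Over chromosomes, the RARα-only regions were 7.22% (chromosome 13) to 9.56% (chromosome 7) of the regions of each autosome. On chromosome X they were 8.92% of all regions and 33.5% of the regions shared by the RARα lists, the highest of any chromosome. Chromosome Y held 3. The genes whose spans held most of them were Upp2, a uridine phosphorylase of liver, with 7 in 229.5 kb, Pde4d, a cAMP phosphodiesterase, with 6, and Sash1, Rbfox1 and Alk with 5 each. Pde4d and Rbfox1 are among the longest genes, with spans of 1302 and 1528 kb. Upp2 also held 10 regions with a RARβ or RXRα peak, and Pde4d 50.

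Among the 536 RARα-only regions at a start, the midpoint was a median of 96.5 bp from it, upstream in 241 and at or downstream of it in 295. The 10 with the highest lower rank were at Cd81, Arl4d, Pecr, Gclc, Snrk, Actg1, Ttpal, Gch1, Rhof and C2cd2. Cd81, a tetraspanin of the cell surface, had a region at chr7:143052330-143053302 with scores of 614 under the control diet and 543 under RA. Arl4d, a small GTPase related to ADP-ribosylation factors, had scores of 719 and 493, of which the first was the highest control score in the class. Snrk, a kinase related to SNF1, had 633 and 416. These 3 had the lower score under RA.

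Gclc, the catalytic subunit of the enzyme that starts glutathione synthesis, had scores of 413 under the control diet and 479 under RA. Gch1, which makes the first step of tetrahydrobiopterin synthesis, had 385 and 510. Actg1, cytoplasmic γ-actin, had 392 and 436, and Pecr, a reductase of fatty acid elongation in peroxisomes, had 427 and 444. Of the 10 regions, 8 had a RARβ or RXRα peak within 1 kb of their edge, as at Snrk, where it was 0.25 kb away. High-ranking regions at starts were thus often next to another receptor's peak.

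The promoter windows of Cd81, Arl4d, Pecr and Snrk are shown because their RARα-only regions had the highest lower rank at a start among those that cover a window of the table in full. Each window runs from 250 bases before to 50 bases after an annotated start (RefSeq, GRCm38.p6), on the strand of the gene. Capitals mark the GC box GGGCGG, which transcription factors of the SP and KLF families bind, and the letters CCAAT, either of them on either strand; neighbouring GC boxes run together where they overlap. The windows are chr7:143052500-143052799 on the plus strand for Cd81, chr11:101665291-101665590 on the plus strand for Arl4d, chr1:72284272-72284571 on the minus strand for Pecr and chr9:122117016-122117315 on the plus strand for Snrk.
Cd81: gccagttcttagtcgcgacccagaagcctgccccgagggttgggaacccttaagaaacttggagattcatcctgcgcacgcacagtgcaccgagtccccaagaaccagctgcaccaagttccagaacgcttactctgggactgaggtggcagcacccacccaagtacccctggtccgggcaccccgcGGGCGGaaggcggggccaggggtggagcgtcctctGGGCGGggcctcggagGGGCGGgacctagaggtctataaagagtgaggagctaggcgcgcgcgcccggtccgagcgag
Arl4d: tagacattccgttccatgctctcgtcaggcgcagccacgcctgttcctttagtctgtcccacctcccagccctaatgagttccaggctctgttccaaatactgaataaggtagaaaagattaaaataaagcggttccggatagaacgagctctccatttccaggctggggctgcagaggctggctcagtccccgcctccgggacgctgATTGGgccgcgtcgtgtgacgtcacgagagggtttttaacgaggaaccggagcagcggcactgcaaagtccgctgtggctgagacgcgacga
Pecr: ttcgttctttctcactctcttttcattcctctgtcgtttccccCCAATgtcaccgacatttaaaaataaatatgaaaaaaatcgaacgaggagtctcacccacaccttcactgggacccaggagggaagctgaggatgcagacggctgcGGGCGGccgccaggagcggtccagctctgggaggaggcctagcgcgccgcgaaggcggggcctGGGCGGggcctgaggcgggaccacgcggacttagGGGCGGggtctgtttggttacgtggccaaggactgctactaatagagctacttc
Snrk: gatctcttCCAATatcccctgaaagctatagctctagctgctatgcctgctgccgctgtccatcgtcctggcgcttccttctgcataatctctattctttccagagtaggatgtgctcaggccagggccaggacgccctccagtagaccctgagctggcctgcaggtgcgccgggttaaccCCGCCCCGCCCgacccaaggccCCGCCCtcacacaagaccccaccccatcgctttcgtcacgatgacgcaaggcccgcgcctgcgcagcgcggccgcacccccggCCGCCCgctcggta
GC content was 65.7% in the Cd81 window, 56.3% in that of Arl4d, 58.3% in that of Pecr and 64.7% in that of Snrk. The Arl4d window held no GGGCGG, and none of the 4 held AGGTCA or AGTTCA on either strand.

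Over all 460 protein-coding windows whose start lay within 1 kb of the midpoint of a RARα-only region, 59.3% (54.8 to 63.7) held GGGCGG, against 46.2% (45.5 to 46.9) of the 21263 protein-coding windows of the table and 69.9% (68.7 to 71.1) of the 5671 within 1 kb of a region of all 6 lists. The half-site AGGTCA was in 8.04% (5.89 to 10.9), against 14.7% of the table and 11.8% at regions of all 6 lists, and AGTTCA was in 10.4%, against 12.5% and 9.35%. No window held AGGTCA repeated directly with a gap of 1, 2, 4 or 5 bases, which was also rare in the table, with 10 windows for the gap of 1 and 1 for the gap of 5. The ETS letters CCGGAAG were in 7.61% (5.52 to 10.4), against 11.6% of the table and 23.5% at regions of all 6 lists. CCAAT was in 31.5% (27.4 to 35.9), against 38.2% and 41.4%. Median GC content was 60.7%, against 56.3% in the table and 62.3% at regions of all 6 lists, and the ratio of observed to expected CpG was 0.687, against 0.567 and 0.822. Starts of 1 gene can give overlapping windows, so the windows are not all independent. These windows were thus GC-rich, poorer in ETS letters than those at regions of all 6 lists, and not richer in AGGTCA than the table.

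Other letters searched on both strands were those of NRF1 (GCATGCGC), YY1 (AAGATGGC), CREB (TGACGTCA), the E-box (CACGTG), the TATA box (TATAAA), BANP (CTCGCGAG), ZNF143 (ACTACAATT), FOXA (TGTTTAC) and HNF4 (CAAAGTCC). Windows at RARα-only regions held NRF1 letters in 3.70%, against 3.52% of the table and 7.04% at regions of all 6 lists, and TATAAA in 9.57%, against 12.6% and 5.54%. FOXA letters were in 1.74% (0.884 to 3.39), against 3.01% and 2.70%, and HNF4 letters in 0.870% (0.339 to 2.21), against 1.44% and 1.48%. Both factors are known for binding in hepatocytes, and both intervals include the shares set beside them. YY1 letters were in 1.74% (0.884 to 3.39), against 3.05% and 5.50%, an interval that includes the share of the table. A match is a stretch of letters and does not show that the factor binds.

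Promoter windows of long non-coding RNAs (lncRNAs) gave a match of another kind. Among 103 lncRNA windows covered over at least 150 of their 300 bases by a RARα-only region, 21 (20.4%, 13.7 to 29.2) held a match to the core motif of CTCF, a zinc finger protein that binds insulators and loop anchors. The share was 0.552% of the 11588 lncRNA windows of the table and 0.815% (0.374 to 1.77) of the 736 covered by regions of all 6 lists. It was 2.64% (2.03 to 3.43) of the 2047 windows covered by a region of any kind. Among the 1416 covered by regions that both RARα lists shared it was 3.32% (2.51 to 4.39). Both of these groups include the RARα-only regions. Median GC content was 53.3% in the windows covered by RARα-only regions, 48.3% in the lncRNA windows of the table and 63% in those covered by regions of all 6 lists. This search was added after the first motif results had been seen. The 21 windows lie over 18 of the 96 RARα-only regions with a covered lncRNA window, since some lncRNAs have several annotated starts; with 1 window kept for each region, 17 of 96 (17.7%, 11.4 to 26.5) held a match.

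Examples are given from the 5 regions of highest lower rank among those with a match. They are chr10:94623655-94623954 (Gm32898, minus strand), chr9:118489730-118490029 (Gm33460, minus strand), chr11:119190497-119190796 (Gm11753, minus strand), chr5:119691169-119691468 (Tbx3os2, minus strand) and chr2:73584610-73584909 (Chrna1os, plus strand), each covered whole by its region. The lines show how the match, in capitals, sits in the window on the strand of the lncRNA (RefSeq, GRCm38.p6).
Gm32898: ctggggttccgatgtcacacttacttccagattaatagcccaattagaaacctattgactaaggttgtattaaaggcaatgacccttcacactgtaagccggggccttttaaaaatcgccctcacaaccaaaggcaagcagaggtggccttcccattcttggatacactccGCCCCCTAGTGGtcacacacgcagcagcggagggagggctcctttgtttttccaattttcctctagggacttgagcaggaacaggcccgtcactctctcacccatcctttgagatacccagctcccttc
Gm33460: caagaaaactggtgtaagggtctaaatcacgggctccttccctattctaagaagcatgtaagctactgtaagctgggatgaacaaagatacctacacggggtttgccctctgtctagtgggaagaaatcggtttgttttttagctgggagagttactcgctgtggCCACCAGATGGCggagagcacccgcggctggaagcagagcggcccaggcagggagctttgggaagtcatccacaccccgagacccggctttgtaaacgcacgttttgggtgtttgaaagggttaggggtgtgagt
Gm11753: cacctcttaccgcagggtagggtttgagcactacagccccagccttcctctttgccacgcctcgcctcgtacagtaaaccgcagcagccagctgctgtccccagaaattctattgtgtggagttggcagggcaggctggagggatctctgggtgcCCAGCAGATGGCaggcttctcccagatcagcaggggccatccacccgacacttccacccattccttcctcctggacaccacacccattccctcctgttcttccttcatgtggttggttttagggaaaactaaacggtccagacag
Tbx3os2: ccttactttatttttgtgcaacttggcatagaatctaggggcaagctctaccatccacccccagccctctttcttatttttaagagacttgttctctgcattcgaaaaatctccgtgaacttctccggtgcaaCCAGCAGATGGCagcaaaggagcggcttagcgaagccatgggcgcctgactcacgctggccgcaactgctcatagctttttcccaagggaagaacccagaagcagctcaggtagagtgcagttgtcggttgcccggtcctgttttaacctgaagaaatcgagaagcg
Chrna1os: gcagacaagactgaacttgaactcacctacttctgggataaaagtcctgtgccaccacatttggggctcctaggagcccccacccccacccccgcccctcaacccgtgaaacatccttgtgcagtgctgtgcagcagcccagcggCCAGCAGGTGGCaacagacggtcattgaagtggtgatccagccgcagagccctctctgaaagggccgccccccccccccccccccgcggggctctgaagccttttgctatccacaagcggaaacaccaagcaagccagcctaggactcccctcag
The match was 98.5 bp from the midpoint of the region at Gm32898, 51.5 bp at Gm33460, 59.5 bp at Gm11753, 30.5 bp at Tbx3os2 and 14.5 bp at Chrna1os.

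These 5 regions scored 205 in the control list and 347 in the RA list at Gm32898, 202 and 310 at Gm33460, and 202 and 207 at Gm11753. At Tbx3os2 they were 163 and 464, and at Chrna1os 157 and 323. By rank, 4 of the 5 were higher under RA, and Gm11753 went from 74.3 to 72.5. Of all 18 regions with a match, 11 had the higher score and 10 the higher rank under RA. Over all RARα-only regions, 68.2% had the higher rank under RA, so regions with a match did not stand above the class. The nearest protein-coding starts were those of Tmcc3 at 47.6 kb, Eomes at 11.7 kb, Ccdc40 at 37.9 kb, Tbx3 at 20.8 kb and Chrna1 at 4.44 kb, so none of the 5 was at a coding start.

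CTCF matches were near the middle of the RARα-only regions. Over the covered lncRNA and protein-coding windows together there were 24 matches, a median of 40.5 bp from the midpoint of the region, and 22 of them (91.7%) were within 100 bp of it. Of all bases of these windows 41.1% were within 100 bp of the midpoint, as were 46.9% of the 542 GGGCGG matches and 38.9% of the 36 AGGTCA matches. A central position was not particular to CTCF. Of the 10 YY1 matches 9 (90%) were within 100 bp of the midpoint, at a median of 28 bp. So were 66.7% of the 24 NRF1 matches and 58.1% of the 43 ETS matches.

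The other classes had lower shares of CTCF matches in their lncRNA windows, with wide intervals where windows were few. The share was 7.46% (3.23 to 16.3) of 67 windows for RARα and RXRα without RARβ, 6.06% (1.68 to 19.6) of 33 for RARα-only regions of the RA list alone, and 0.424% (0.0748 to 2.36) of 236 for RXRα peaks without RARα and RARβ. Among 31 windows at RARα-only regions of the control list alone there was no match, which allows up to 11.0% by the same interval. The first 2 of these intervals overlap that of the regions called under both diets. In windows that no region of any list touched, the share was 0.0968% of 9295.

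In protein-coding windows the CTCF share was lower. It was 2.67% (1.41 to 4.997) of the 337 windows covered by a RARα-only region, against 0.560% (0.468 to 0.669) of the table and 0.779% (0.581 to 1.04) of the 5647 covered by regions of all 6 lists. Beyond 1 kb of any protein-coding start, 24.1% (16.0 to 34.5) of 79 covered lncRNA windows held a match, against 0.948% (0.260 to 3.39) of 211 covered by regions of all 6 lists and 0.552% of all lncRNA windows that far from a coding start, covered or not. Only 386 of the RARα-only regions (5.28%) covered at least 150 bases of a promoter window of either kind, so the sequence of the other regions was not analysed here.

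**Figure D4:**
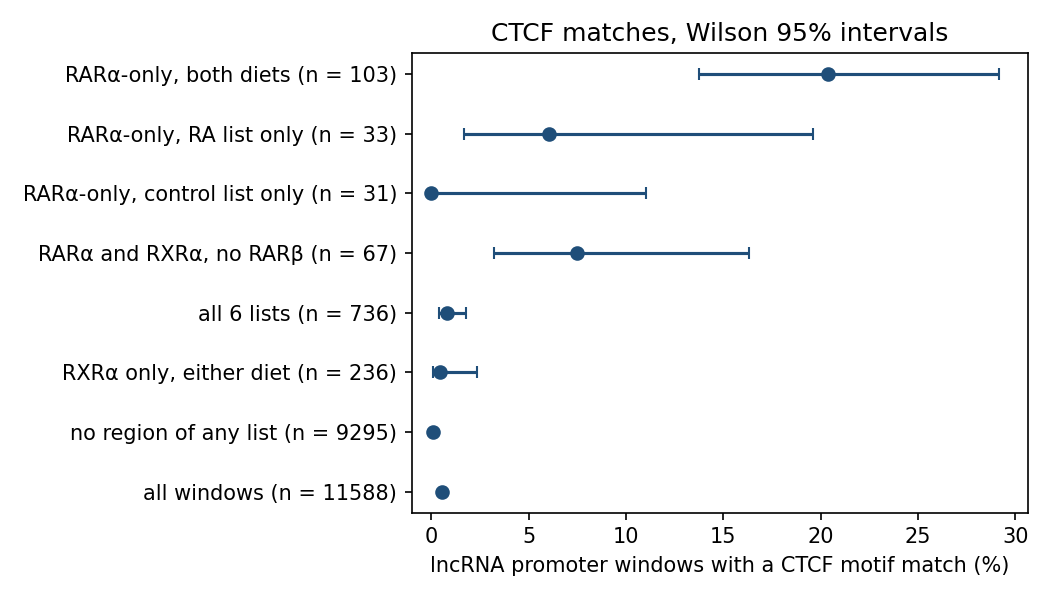
Share of lncRNA promoter windows with a CTCF motif match (x axis, %), with Wilson 95% intervals as bars, by the class of region that covers at least 150 of the 300 bases (rows, with the number of windows). The RARα-only regions called under both diets are at 20.4%, regions of all 6 lists at 0.815% and all windows at 0.552%.

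The genes near the RARα-only regions were counted next. Of 21536 protein-coding genes with a known start, 2260 (10.5%) had such a region within 10 kb and 557 (2.59%) within 1 kb; neighbouring genes can share a region. A region with a RARβ or RXRα peak was also within 10 kb for 77.4% of the 2260 genes, against 68.3% of all genes. No such region was within 10 kb for 511 of the 2260 genes and for 146 of the 557.

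Genes of protein synthesis and energy supply stood near the 10.5% of all genes at 10 kb and at or near 0 at starts. A RARα-only region was within 10 kb of 7 of 81 cytosolic ribosomal protein genes, 6 of 78 mitochondrial ribosomal protein genes, 5 of 49 genes of respiratory complex I and 5 of 48 proteasome genes, and within 1 kb of none of them, beside 2.59% of all genes. RARα itself was not missing there, since 76, 74, 46 and 45 of these genes had a region shared by the RARα lists within 1 kb. Regions of all 6 lists were within 1 kb of 51, 57, 38 and 31 of them, beside 27.3% of all genes. Such a region cannot be RARα-only under the selection rule, so the absence of RARα-only regions at these starts is in part built in. Splicing factors were similar, at 5 of 71 within 10 kb and 1 within 1 kb, as were RNA polymerase and Mediator subunits, at 3 of 58 and 0. Translation factors stood at 6 of 71 and 0, and DEAD and DEAH box helicases at 6 of 53 and 0.

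Smaller housekeeping lists were similar, with 3 of 35 aminoacyl-tRNA synthetases within 10 kb, 2 of 37 E2 ubiquitin enzymes, 2 of 22 intraflagellar transport and Bardet-Biedl genes and 1 of 23 vacuolar ATPase subunits. Heat shock proteins and chaperonins stood at 8 of 79, genes of membrane traffic at 9 of 109, and Zfp zinc finger genes at 36 of 396, of which 13 were within 1 kb. Of 30 DNA repair genes 5 had one, among them Ercc4 and Xrcc5, and only Ercc1 within 1 kb. The 1108 olfactory receptor genes, which are silent in liver, had one in 24 cases (2.17%, 1.46 to 3.20) within 10 kb and in 1 case within 1 kb.

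Histone genes stood above these lists, with 32 of 103 (31.1%, 22.9 to 40.6) within 10 kb and 9 within 1 kb. They lie in dense clusters, so 1 region serves several genes. The region at chr13:23761765-23762707, with scores of 222 and 283, was within 10 kb of H1f1, H3c1, H3c2 and H4c1, and a peak of another receptor was 0.029 kb from it. The count of genes is therefore larger than the count of regions.

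Genes of retinoid handling had a RARα-only region within 10 kb in 7 of 27 cases (25.9%, 13.2 to 44.7), an interval that lies above the 10.5% of all genes. This is 1 of 29 lists, and the interval takes no account of their number. Within 1 kb the list stood at 1 of 27 (3.70%, 0.657 to 18.3), an interval that includes the 2.59% of all genes. At Rara, the gene of the receptor itself, the region was 5.11 kb upstream of a start, at chr11:98959396-98960123, with scores of 202 under the control diet and 260 under RA. At Cyp26a1, which breaks RA down and is a classic target of the RARs, it was 6.31 kb downstream of the start with scores of 86.5 and 253, so its rank went from 36.5 to 79.6. At Stra6l, a paralogue of the retinol transporter Stra6, the scores were 210 and 251. These 3 had the higher score under RA. The nearest RARβ or RXRα peak was 0.654 kb from the region at Cyp26a1, 2.06 kb from that at Rara and 3.4 kb from that at Stra6l.

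Enzymes of retinoid metabolism were among the 7 as well. Aldh1a3, an enzyme that makes RA from retinal, had scores of 114 and 234 in a region 7.38 kb upstream of its start, and Dhrs3, which reduces retinal, 72.1 and 99.1. Aldh1a2, another enzyme that makes RA, had 107 under the control diet and 63.0 under RA. Lrat, which esterifies retinol for storage in stellate cells, was the 1 gene of the list with the region at its start, with scores of 129 and 97.6. The list has no common direction. A RARβ or RXRα peak was 0.721 kb from the region at Dhrs3 and 4.2 kb from that at Aldh1a2. It was 18.4 kb away at Lrat and 44.9 kb away at Aldh1a3.

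Among 20 targets of PPARα, a receptor that controls fatty acid oxidation, only Cpt1a had a RARα-only region within 10 kb. Cpt1a encodes the transferase that admits long-chain fatty acids to mitochondria, and its region, 1991 bp wide at 0.377 kb from a start, had scores of 203 and 160, with a peak of another receptor 0.016 kb from its edge. Of 20 targets of LXR and FXR, the receptors of oxysterols and bile acids, 3 had one. Abcg1, a cholesterol exporter, had scores of 116 and 64.7 at its start, Srebf1, which drives fatty acid synthesis, had 95.7 and 141 at an annotated start, and Slc51b, a subunit of the bile acid exporter, had 117 and 281 at 9.65 kb. Of 19 cholesterol synthesis genes only Tm7sf2 had one.

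Markers of liver cell types differed in how often a RARα-only region lay at their start. Of the 6 markers listed for sinusoidal endothelium, Stab2, Clec4g and Kdr had one within 1 kb, and of the 6 for stellate cells Lrat and Col1a1 did. None of the 6 hepatocyte markers (Alb, Apoa1, Ttr, Serpina1a, Cyp2e1 and Hnf4a) and none of the 6 Kupffer cell markers had one within 10 kb. Of the 6 for cholangiocytes, Sox9 had one within 10 kb, and of the 6 for lymphocytes, Cd79a did. Lists of 6 are small, with intervals up to 81.2%, so lists of 30 were added after these counts had been seen.

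With 30 markers each, a RARα-only region was within 1 kb of 6 endothelial genes (20%, 9.51 to 37.3), 5 genes of stellate cells and fibroblasts (16.7%, 7.34 to 33.6), 1 gene of Kupffer cells and macrophages and 0 hepatocyte genes, where 0 of 30 allows up to 11.4%. The endothelial genes include Stab2, Clec4g and Kdr again, and the stellate genes Lrat and Col1a1. The lists of 30 are therefore not a separate check of the lists of 6. All protein-coding genes stood at 2.59%. RARα itself was not missing at hepatocyte starts. A region shared by the RARα lists, with or without other receptors, was within 1 kb of 11 hepatocyte and 13 endothelial genes. For stellate and macrophage genes the count was 6 each. Regions of all 6 lists were within 1 kb of 4 hepatocyte genes, 2 macrophage genes and no endothelial or stellate gene. The share over all protein-coding genes was 27.3%, and the share of each of the 4 lists was below it. For the hepatocyte list the interval still includes 27.3%. Within 10 kb the counts for RARα-only regions were 9 endothelial, 5 stellate and 5 macrophage genes. In whole liver, fewer cells of a type and less binding per cell cannot be told apart, and the part of cell mixture in these counts was not tested.

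**Figure D5:**
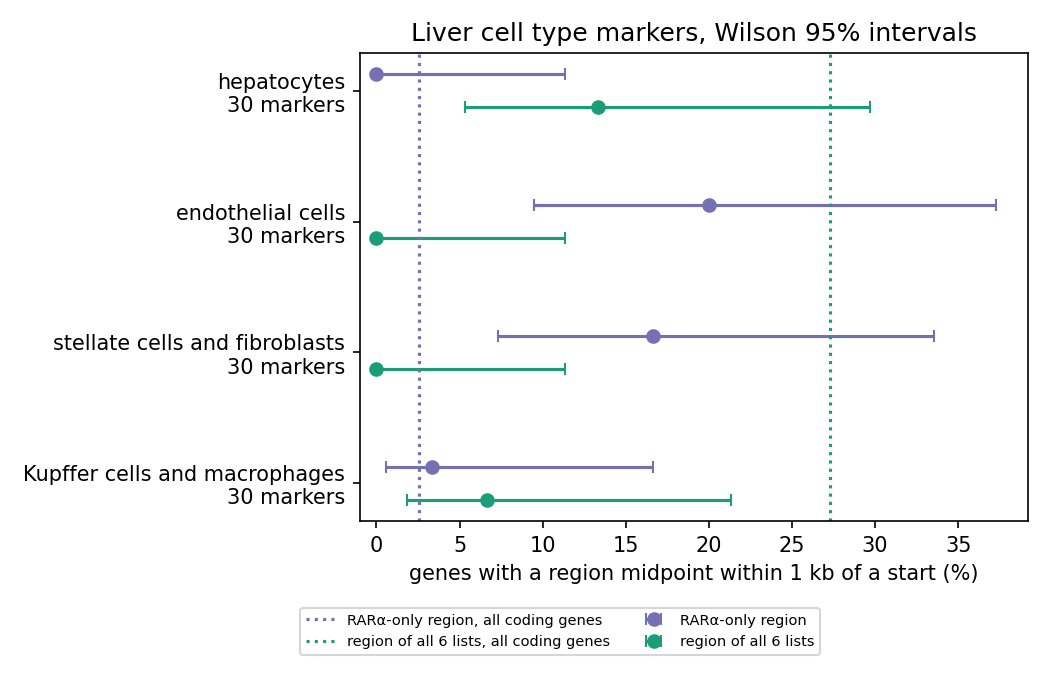
Share of 30 marker genes per liver cell type with a region midpoint within 1 kb of a start (x axis, %), with Wilson 95% intervals, for RARα-only regions (purple) and regions of all 6 lists (green); the dotted lines are the shares of all protein-coding genes, 2.59% and 27.3%. RARα-only regions are at 20% of endothelial and 16.7% of stellate genes and at 0 of the hepatocyte genes.

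At the endothelial starts, Kdr, the main receptor of vascular endothelial growth factor, had scores of 194 under the control diet and 83.7 under RA. Flt1, another receptor of that factor, had 108 and 72.5. Stab2, a scavenger receptor for hyaluronan on sinusoidal endothelium, had 79.0 and 56.6, and Clec4g, a lectin of the same cells, had 78.8 and 52.4 at its start. Bmp2, a signal from endothelium to hepatocytes that controls hepcidin, had 196 and 172, and F8, coagulation factor VIII, had 125 and 125. None of the 6 had the higher rank under RA. The 4 RARα-only regions between 1 and 10 kb of endothelial marker starts, near Clec1b, Robo4, Cdh5 and Clec4g, all had the higher rank under RA, for instance 35.7 and 61.5 near Robo4. Of all RARα-only regions at 1 to 10 kb from a start, 70.4% had the higher rank under RA.

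Of the stellate genes, Col1a1, the α1 chain of type I collagen, had scores of 190 and 162 in a region 0.919 kb downstream of its start. Vim, the filament protein vimentin, had 126 and 103, Lhx2, a homeobox factor, 92.6 and 63.3, and Ecm1, a matrix protein, 85.6 and 94.6. Of the 11 regions at endothelial and stellate starts, 10 had the lower percentile rank under RA, beside 50% of all RARα-only regions within 1 kb of a start; this count was made after their values were seen. The nearest RARβ or RXRα peak was 0.658 kb (Ecm1) to 41.2 kb (Col1a1) away. Spi1, a master factor of macrophages, had 57.7 and 82.2 at 0.734 kb from its start.

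The windows of Kdr, Stab2 and Lrat are shown as the starts of defining markers of endothelial and stellate cells. Capitals mark the letters GGGCGG or CCAAT on either strand in the Kdr and Lrat windows and the receptor half-site AGGTCA in the Stab2 window, and the windows (RefSeq, GRCm38.p6) are chr5:75978406-75978705, chr10:87007893-87008192 and chr3:82903925-82904224, all on the minus strand.
Kdr: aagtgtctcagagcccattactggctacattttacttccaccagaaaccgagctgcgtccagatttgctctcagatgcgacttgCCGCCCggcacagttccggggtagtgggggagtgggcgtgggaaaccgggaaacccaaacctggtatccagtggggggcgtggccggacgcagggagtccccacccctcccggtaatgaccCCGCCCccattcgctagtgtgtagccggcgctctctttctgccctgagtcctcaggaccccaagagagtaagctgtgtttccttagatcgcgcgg
Stab2: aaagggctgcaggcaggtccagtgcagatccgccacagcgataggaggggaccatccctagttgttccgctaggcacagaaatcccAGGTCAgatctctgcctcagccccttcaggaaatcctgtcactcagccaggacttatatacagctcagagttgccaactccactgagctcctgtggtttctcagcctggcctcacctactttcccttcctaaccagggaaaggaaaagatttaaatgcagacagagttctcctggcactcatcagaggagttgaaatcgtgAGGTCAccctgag
Lrat: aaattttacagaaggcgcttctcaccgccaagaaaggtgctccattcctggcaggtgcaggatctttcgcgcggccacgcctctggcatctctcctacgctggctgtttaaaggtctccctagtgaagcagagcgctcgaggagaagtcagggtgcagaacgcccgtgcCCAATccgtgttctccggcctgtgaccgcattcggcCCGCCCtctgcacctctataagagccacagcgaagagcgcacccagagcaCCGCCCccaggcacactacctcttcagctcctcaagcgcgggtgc
The Stab2 window held AGGTCA 2 times and had 53% GC, whereas the Kdr and Lrat windows, both at 60.7% GC, held GGGCGG 2 times each and no AGGTCA.

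Away from starts, the RARα-only regions with the highest lower rank beyond 10 kb were nearest to Ambp, Arhgap29, Crybb2, Mctp2, Tceanc2, Iqub, Rras2, Umps, Ppp2r2b and Bid. The one nearest to Ambp, which encodes the precursor of the plasma proteins α1-microglobulin and bikunin, was 35.1 kb downstream of the start at chr4:63118856-63119233, with ranks of 97.4 and 98.0. The one nearest to Arhgap29, a GTPase activating protein, was 67.9 kb upstream and had a score of 906 under RA, the highest in the class. All 10 had the higher rank under RA, as did 69.7% of all RARα-only regions from 10 to 50 kb and 69.1% of those beyond 50 kb. The nearest RARβ or RXRα peak was 0.324 kb (Crybb2) to 53.5 kb (Mctp2) away.

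The regions that moved most between the lists show how unequal the 2 scores could be. The 5 most above in the RA list were nearest to Gucy2f, Myof, Fmn1, Klf12 and Ptprb, with control scores of 50.5 to 52.6 and RA scores of 232 to 377. All 5 were beyond 1 kb of a start, and the one nearest to Ptprb, a tyrosine phosphatase of endothelium, was 55.2 kb downstream of it. The 5 most above in the control list were nearest to Kng1, Gata2, Fabp5, Jcad and Cxcr4, with RA scores of 54.5 to 63.2. Fabp5, a fatty acid binding protein that also carries RA, went from 229 to 62.6 at 0.085 kb upstream of its start. Cxcr4, a chemokine receptor, went from 162 to 54.5 at 0.092 kb upstream, and Gata2, a factor of endothelium and blood cells, from 247 to 63.2 at 4.22 kb upstream. These were picked for their difference, and with 1 library per diet it was not tested.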

How the data were processed

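ChIP-seq peak lists of RARα, RARβ and RXRα from livers of mice on a control or RA diet were analysed, 1 list per receptor and diet. Per the labels, reads of 35 bp were single-end and CASAVA 1.4 and Bowtie were used. The authors aligned reads to mm10 with Bowtie and called peaks with MACS, each library on its own; the deposited score of each peak is that of MACS, which grows with −log10 of the p-value, and is not normalized between libraries, so percentile ranks within a list were used. The lists were taken as deposited. The limit in the study's methods, a fold over input, is not in the lists and was not applied. The input library was not used here.

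Peaks that overlap or touch were merged with Python 3.11.15 (pandas 2.3.3, numpy 2.4.6). RefSeq annotation of GRCm38.p6 gave 1 span per gene without its strand. The strand came from the RefSeq promoter table for 17492 protein-coding genes and, by symbol, from GENCODE M1 for 4044, so 21536 of 21887 had a start. Starts were the outermost 5′ end of a gene and the starts of the promoter table inside it, 32216 in all. Distances are from region midpoints to starts, and from region edges to peaks of other receptors. The promoter table holds 32851 windows of protein-coding and lncRNA genes and none of chromosome 18. Motifs were searched as fixed letters on both strands; CTCF was searched as a core with a choice of bases at some positions, and again with a looser core. Wilson 95% intervals came from scipy 1.17.1.

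The members and the gene lists were chosen with earlier results of these data known. Named regions were those of the highest lower rank of the RARα lists within 1 kb and beyond 10 kb of a start, those most different between the lists, those farthest from other receptors, the genes with most regions in their span, and in each gene list those with a region within 10 kb. The CTCF search, the lists of 30 markers and the windows shown for lncRNAs, Kdr, Stab2 and Lrat were added after values had been seen. Symbol patterns were corrected so that MHC genes did not count as histones, nor Psme3ip1 as a proteasome gene. The steps were tested on simulated lists and sequences with planted members and motifs. A few genes of the lists are not reported here.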

Additional observations from a re-analysis of the deposited data

How the results depend on the processing

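No paired analysis was possible because each receptor and diet has 1 library, and for the same reason no replicate could be left out. The number of RARα-only regions was 7317; it was 3299 with RARα scores of at least 100, 4183 with lists of equal length and 3297 without a RARβ or RXRα peak within 10 kb. The share within 1 kb of a start was 6.33% with peaks merged across 500 bp, 16.0% with equal lists, 6.01% and 4.55% without another receptor's peak within 1 and 10 kb, 10.5% with genes of all kinds, 8.25% by the nearest edge, 5.92% within 500 bp and 6.31% with outermost starts only. The share within 10 kb was 26.1% with the 500 bp merge, 25.4% with scores of at least 100, 33.8% with equal lists, and 25.2% and 15.4% without another receptor within 1 and 10 kb. The share beyond 50 kb was 24.5% with equal lists, and 31.2% and 40.4% without another receptor within 1 and 10 kb. Median width was 592 bp with equal lists. With equal lists the share within 1 kb was still below that of all regions, 25.8%. Another receptor's peak was within 5 kb for 38.3% and within 50 kb for 89.6%. At 1 kb in place of 10 kb, 557 genes had a region and the median share over 29 gene lists was 0%, against 9.09%. With the looser core, 30.1% of covered lncRNA windows held a CTCF match, against 1.86% of the table; the other 10 alternatives, all added after seeing the data, gave 14.0% to 28.9%. The cause of these moves was not tested. The depth of each of the 6 libraries is not known, though the study's text gives more mapped reads for RARα than for RXRα. A region near the lowest score can be lost or gained with depth.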

Other observations

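RARα-only regions also touched the hairpin genes of a few microRNAs, 7 of 1228 in the RefSeq table. Mir122, the most abundant microRNA of hepatocytes, lay in a region 4115 bp wide with scores of 148 under the control diet and 311 under RA, 3.76 kb from the nearest RARβ or RXRα peak. Mir137, a microRNA of neurons, lay in a region of 476 bp with scores of 60.1 and 81.4. These genes were picked after their values were seen. Of 408 tRNA genes none was touched, and 806 of 12727 lncRNA genes were.

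RARα-only regions of 1 diet had lower scores than those of both. The grouping rests on these same calls, so lower scores are in part built in and are given as a description. The control list alone held 2214, with a median score of 62.1, and the RA list alone 4873, with a median score of 72.8, against medians of 102 and 143 for regions called under both diets. Their median widths were 421.5 and 325 bp.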
